A study of Homo sapiens with 2 samples.

Results

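A miRNA hairpin is a short folded RNA that is cut into a duplex of its left arm (5p) and its right arm (3p). The hairpins described here are those that gave a sizeable number of reads from both arms in untreated U87MG cells, a line established from a human glioblastoma. Members were chosen from the deposited miRNA read counts: both arms listed under 1 hairpin name, 100 or more reads in total, and the lower arm at 25% or more of the reads. Of 168 hairpins with both arms and 100 or more reads, 28 met this limit (16.7% of them), so 56 of the 1224 listed mature miRNAs are members. A further hairpin that met these limits was set aside by the rule and is not reported here. Because the arm shares chose the members, they are given as a description and were not tested.

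The series holds 1 small RNA library and 1 mRNA library, from cells that per the labels grew in MEM with 10% FBS and 1% Pen-Strep. U87MG is a single long-cultured line, and there is no replicate and no control cell, so no value could be set against a spread between samples. The small RNA library had 11785001 miRNA reads. The mRNA library gave high FPKM values for the mesenchymal genes VIM (2420) and CD44 (560), while of the astrocyte genes the transporter SLC1A3 was at 19.3 and the filament gene GFAP at 0.331, with no row for S100B and AQP4, and the defining markers of neurons, oligodendrocytes and endothelium were below 1 FPKM or had no row. Markers of microglia had no row.

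In the textbook account, Drosha and Dicer cut the hairpin, an Argonaute protein takes up the duplex, and 1 strand stays as the guide while the other, the passenger, is broken down. The guide finds its mRNA targets through its seed, bases 2 to 8, so the arms of 1 hairpin address different mRNAs. Argonaute is known to favour the strand whose 5′ end is less tightly paired and whose first base is U or A. Hairpins in which both arms persist are therefore of interest, since each then supplies a pair of miRNAs from 1 transcript.

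The mature sequences of the 8 members with the most reads show what such a pair looks like. They are printed 5′ to 3′ as the deposited table lists them, with T for U and the seed in capitals.
miR-455-5p: tATGTGCCtttggactacatcg
miR-455-3p: gCAGTCCAtgggcatatacac
miR-145-5p: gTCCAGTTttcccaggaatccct
miR-145-3p: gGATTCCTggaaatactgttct
miR-374a-5p: tTATAATAcaacctgataagtg
miR-374a-3p: cTTATCAGattgtattgtaatt
miR-574-5p: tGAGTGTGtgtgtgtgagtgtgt
miR-574-3p: cACGCTCAtgcacacacccaca
miR-493-5p: tTGTACATggtaggctttcatt
miR-493-3p: tGAAGGTCtactgtgtgccagg
miR-15b-5p: tAGCAGCAcatcatggtttaca
miR-15b-3p: cGAATCATtatttgctgctcta
miR-654-5p: tGGTGGGCcgcagaacatgtgc
miR-654-3p: tATGTCTGctgaccatcacctt
miR-708-5p: aAGGAGCTtacaatctagctggg
miR-708-3p: cAACTAGActgtgagcttctag

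The members nearest to an even split were miR-18a, miR-339, miR-574 and miR-548f. Their arms, apart from those of miR-574 above, are shown in the same way.
miR-18a-5p: tAAGGTGCatctagtgcagatag
miR-18a-3p: aCTGCCCTaagtgctccttctgg
miR-339-5p: tCCCTGTCctccaggagctcacg
miR-339-3p: tGAGCGCCtcgacgacagagccg
miR-548f-5p: tGCAAAAGtaatcacagttttt
miR-548f-3p: aAAAACTGtaattactttt

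The place of the arms in the hairpin is shown for the member with the most reads, for the member nearest to an even split and for miR-574, whose ends differed widely in strength. These are RefSeq hairpin sequences on GRCh38.p14, with the listed 5p and 3p arms in capitals. MIR455 lies on the plus strand at chr9:114209434-114209529 within COL27A1, MIR18A on the plus strand at chr13:91350751-91350821 within MIR17HG, and MIR574 on the plus strand at chr4:38868032-38868127 within FAM114A1. Whether each lies in an exon or an intron was not analysed here.
MIR455: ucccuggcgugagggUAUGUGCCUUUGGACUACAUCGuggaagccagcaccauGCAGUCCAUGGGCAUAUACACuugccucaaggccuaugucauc
MIR18A: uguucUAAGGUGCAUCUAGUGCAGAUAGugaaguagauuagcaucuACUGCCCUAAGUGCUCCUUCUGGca
MIR574: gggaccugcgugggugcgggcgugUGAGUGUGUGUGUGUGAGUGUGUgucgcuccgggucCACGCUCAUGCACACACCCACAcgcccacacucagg

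miR-455, encoded within the collagen gene COL27A1, was by far the most abundant member. Its 5p arm had 23063 reads and its 3p arm 12402, ranks 39 and 50 of the 1224 listed miRNAs. The lower arm held 34.97% of the reads (exact Clopper-Pearson 95% interval 34.5 to 35.5%). The pair made up 52.1% of all 68007 reads of the members, which together held 0.577% of the miRNA reads (0.573 to 0.581%). Such intervals cover counting error only, and reads counted without molecular identifiers can be copies of 1 molecule. How well each arm's sequence was captured in the library was not measured. All arm shares here are therefore shares of reads, which can differ from shares of molecules in the cells.

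The other abundant members were mostly led by their 5p arm. miR-145, a miRNA of smooth muscle cells that is transcribed together with miR-143, had 4472 reads on the 5p arm and 1715 on the 3p arm. For miR-374a, encoded in the X-linked non-coding RNA gene FTX, the counts were 2456 and 1394. miR-574 had 1852 and 1580, which is close to an even split, and its lower arm held 46.0% (44.4 to 47.7%). The lower arm was less prominent in miR-15b, of the miR-15/16 family that restrains the cell cycle, with 1779 reads on 5p and 822 on 3p. miR-493 had 1729 and 1163 reads, and miR-708, within the gene of the transmembrane protein TENM4, had 1423 and 534. miR-654 was the exception among these 8, with 521 reads on the 5p arm and 1549 on the 3p arm.

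**Figure D1:**
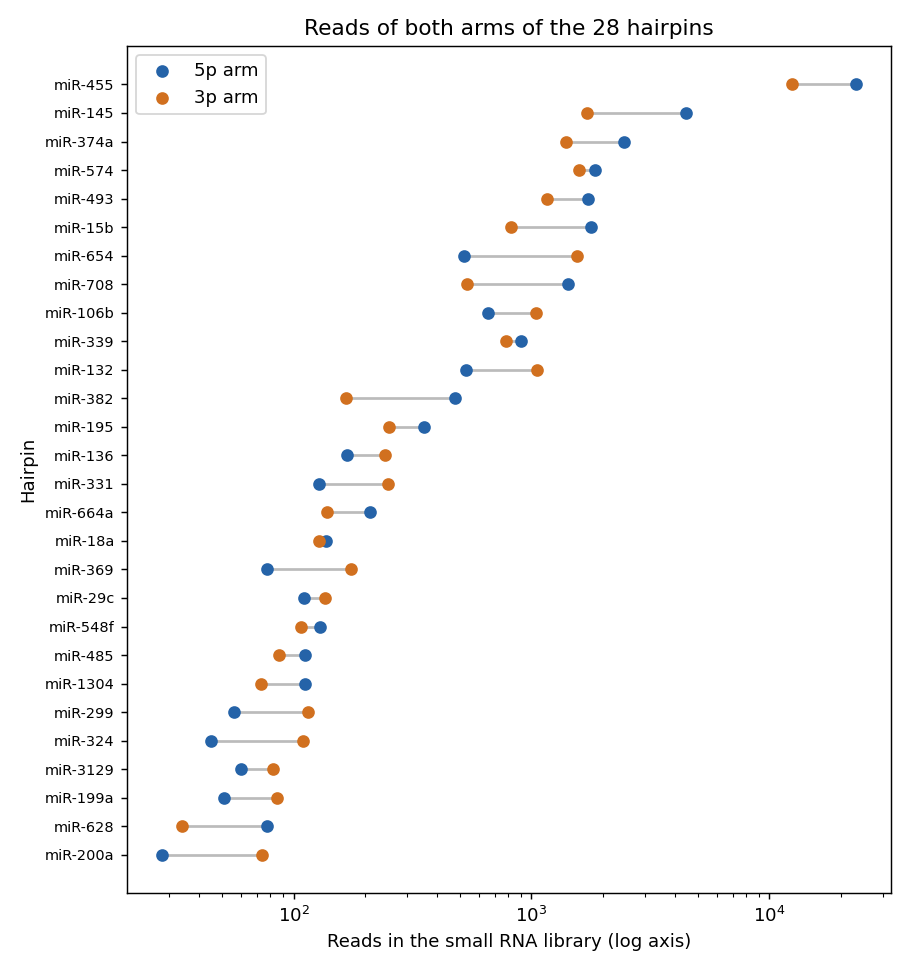
Reads of the 5p arm (blue) and 3p arm (orange) of each of the 28 hairpins in the small RNA library, on a log axis, ordered by total reads. miR-455 stands apart with 23063 and 12402 reads, and the arms of miR-18a, with 137 and 128 reads, nearly coincide.

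Of the members nearest to an even split, miR-574 and miR-339 had 3432 and 1679 reads in total, and miR-18a and miR-548f 265 and 236. miR-18a, from the proliferation-linked 17-92 cluster, had 137 reads on 5p and 128 on 3p, and its lower arm held 48.3% (42.1 to 54.5%). miR-339 had 901 and 778 reads, or 46.3% (43.9 to 48.8%) on the lower arm. miR-548f, of a primate family derived from transposable elements, had 129 and 107. For miR-18a, miR-548f, miR-29c, miR-485 and miR-3129 the interval included 50%, so the order of their arms was not distinguishable at this depth.

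Of the 28 members, 10 had a lower arm at 40% or more, 12 at 30% to below 40%, and 6 below 30%. The first range also held miR-29c (111 reads on 5p, 135 on 3p), miR-485 (112 and 87), miR-3129 (60 and 82), miR-195 (354 and 251), miR-136 (168 and 243) and miR-493. The middle range held miR-664a (210 and 138), miR-1304 (112 and 73), miR-106b (656 and 1043), miR-199a (51 and 85), miR-374a, miR-455, miR-331 (128 and 249), miR-132 (533 and 1059), miR-299 (56 and 115), miR-15b, miR-628 (77 and 34) and miR-369 (77 and 175). miR-324 (45 and 110), miR-145, miR-200a (28 and 74), miR-708, miR-382 (476 and 166) and miR-654 completed the list. The largest fold between arms was therefore that of miR-654, at 2.97, and the smallest that of miR-18a, at 1.07.

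The limit of 25% cut through a continuous range. Just inside it were miR-708 with a lower arm at 27.3% (25.3 to 29.3%), miR-382 at 25.9% (22.5 to 29.4%) and miR-654 at 25.2% (23.3 to 27.1%). Just outside were miR-576 at 24.4% (21.2 to 27.8%), miR-423 at 23.6% (23.0 to 24.1%) and miR-424 at 22.9% (21.3 to 24.5%). For 22 members the whole interval lay at or above the limit; for the other 6 it reached below. Of the hairpins outside, 3 had an interval that reached the limit.

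Lower arms of the members had a median of 152 reads, against 246 for the higher arms and 10 for all listed miRNAs. The minimum of 100 reads per hairpin and the limit on the lower arm's share together put every lower arm above that median of 10. That lower arms lay above a typical listed miRNA therefore follows from the rule and is not read as a trait of the members. Of the 28 lower arms, 5 had 1000 or more reads (miR-455-3p, miR-145-3p, miR-574-3p, miR-374a-3p and miR-493-3p), 14 had 100 to below 1000 and 9 had fewer. The library is a bulk one, so these counts do not show whether single cells hold both arms, and fewer cells with a miRNA cannot be told from less of it per cell.

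Members had fewer reads than other hairpins. Their median total was 394 reads (range 102 to 35465), against 1579 for the 26 hairpins with a lower arm from 10% to below 25% and 2584 for the 114 with a lower arm below 10%, called one-sided from here on. Members made up 17 of the 71 hairpins with 100 to below 1000 reads (23.9%), 10 of the 58 with 1000 to below 10000 (17.2%) and 1 of the 39 with 10000 or more (2.56%). The 1 member in the deepest range was miR-455. Depth therefore moved with membership, and its part in the results below was not tested except where values by depth are given.

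**Figure D2:**
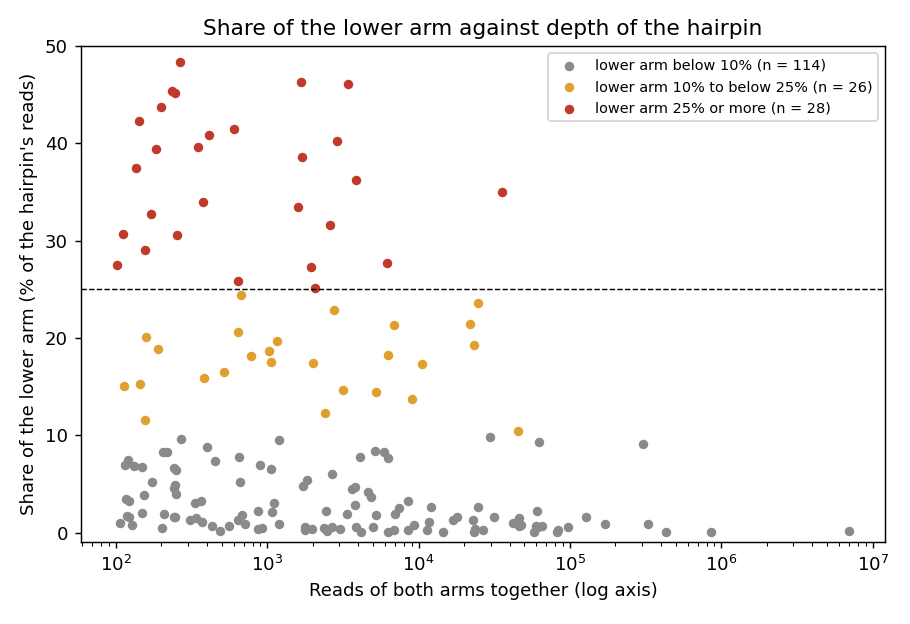
Share of the lower arm (% of the hairpin's reads) against the reads of both arms together (log axis) for the 168 hairpins; the dashed line is the limit of 25%. The 28 members (red) lie mostly at low depth, with miR-455 the only red point above 10000 reads.

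The share of members led by the 5p arm was near that of all hairpins. The 5p arm was higher in 16 of 28 (57.1%), against 56% of the 168 hairpins and 57.9% of the one-sided ones. The 5p arm led in miR-455, miR-145, miR-374a, miR-574, miR-493, miR-15b, miR-708, miR-339, miR-382, miR-195, miR-664a, miR-18a, miR-548f, miR-485, miR-1304 and miR-628. The 3p arm led in the other 12, with miR-654, miR-132 and miR-106b the most abundant of them. miR-18a, miR-548f and miR-485 on the 5p side, and miR-29c and miR-3129 on the 3p side, were counted by their reads. The order of their arms was not distinguishable.

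The first base of each arm was not used by the rule. Among the members' higher arms 15 of 28 started with U (53.6%), beside 54.2% of all 168 hairpins. Their lower arms started with U in 9 of 28 (32.1%), beside 22.6% of all 168, and in 20 of the 114 one-sided hairpins (17.5%). For A the order was reversed. It led 6 of the members' lower arms (21.4%), beside 29.8% of all 168 and 31.6% of the one-sided ones. Arms that started with U on both sides were found in 6 members (21.4%): miR-339, miR-493, miR-29c, miR-1304, miR-299 and miR-654. The share was 12.5% over all 168 hairpins (21) and 11.4% among one-sided hairpins (13 of 114). Among the 26 hairpins between the one-sided ones and the members it was 7.69% (2). C, which Argonaute is known to bind less well at this place, led 9 of the members' lower arms (32.1%) and 38 of the one-sided lower arms (33.3%), nearly the same share.

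The difference in U lay mainly with the most one-sided hairpins. Where the lower arm held below 1% of the reads, it started with U in 2 of 44 hairpins (4.55%). From 1% to below 10% it did so in 18 of 70 (25.7%), and from 10% to below 25% in 9 of 26 (34.6%), beside 32.1% in the members. These ranges were set after the values were seen. Depth moved with them too, with a median total of 7705 reads in the first range and 971 in the second. Among hairpins with 1000 or more reads, the lower arm started with U in 4 of 11 members (36.4%) in 3 of 16 from 10% to below 25% (18.75%), and in 1 of 35 with a lower arm below 1% (2.86%). Below 1000 reads the counts were 5 of 17 (29.4%), 6 of 10 (60%) and 1 of 9 (11.1%), so members lay above the range next to them at the greater depth and below it at the lesser. In the range from 1% to below 10% the count was 9 of 35 (25.7%) at either depth.

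**Figure D3:**
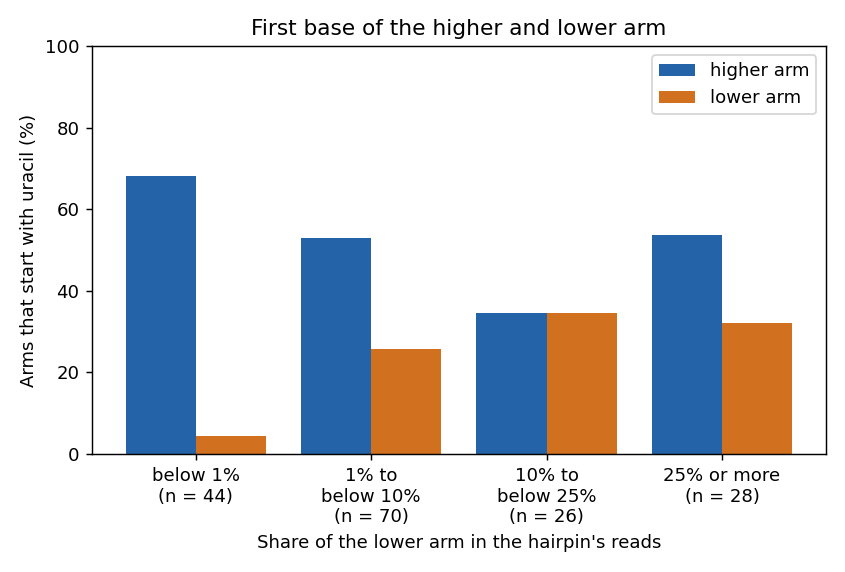
Percent of arms that start with uracil, for the higher (blue) and lower (orange) arm, in 4 ranges of the lower arm's share; n is the number of hairpins. The lower arm goes from 4.55% in the most one-sided range to 32.1% in the members.

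Other simple sequence features differed little. The median length was 22 bases for higher and for lower arms, in members and in one-sided hairpins alike. The median G+C content was 44.5% in the members' higher arms and 48.8% in their lower arms, against 47.6% and 50% in one-sided hairpins. The median energy of the duplex of both arms, computed with ViennaRNA, was -23.1 kcal/mol in members and -21.8 in one-sided hairpins, within wide ranges (-34.5 to -15.8 and -44.7 to -7.6).

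The balance of the duplex ends was computed as the free energy that the pairs of the first 4 bases of each arm add to the duplex. In miR-455 the ends were equal, at -4.7 kcal/mol for both arms. In miR-574 they were far apart: -0.3 at the start of the 5p arm and -7.7 at the start of the 3p arm, yet the arms had 1852 and 1580 reads. miR-136 was also unequal, with -1 at the 5p start and -8.7 at the 3p start, and here the arm with the tighter end, 3p, had more reads (243 against 168). Its arms are printed for that reason.
miR-136-5p: aCTCCATTtgttttgatgatgga
miR-136-3p: cATCATCGtctcaaatgagtct

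Over all members, the median size of the difference between ends was 2.3 kcal/mol, against 2.4 in one-sided hairpins and 3.45 in the 26 hairpins with a lower arm from 10% to below 25%. The arm with the weaker 5′ end was the higher one in 19 of 28 members (67.9%), beside 63.1% of the 168 hairpins, 64.9% of the one-sided ones and 13 of those 26 (50%). The exceptions were miR-485, miR-136, miR-664a, miR-106b, miR-15b, miR-708, miR-382 and miR-654, with miR-455 tied. The count of 19 takes the higher arm by reads, also in the 5 members whose interval included 50%. Across the 28 members the end difference and the log2 ratio of 5p to 3p reads had a Pearson r of 0.22 (Spearman 0.18), against 0.35 (0.31) across the 114 one-sided hairpins. The points share 1 library, and membership narrows the range of the ratio, so this is a description only. With 3 bases at each end the members' r was 0.54, with 5 bases 0.27 and with the RNAcofold structure 0.32.

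**Figure D4:**
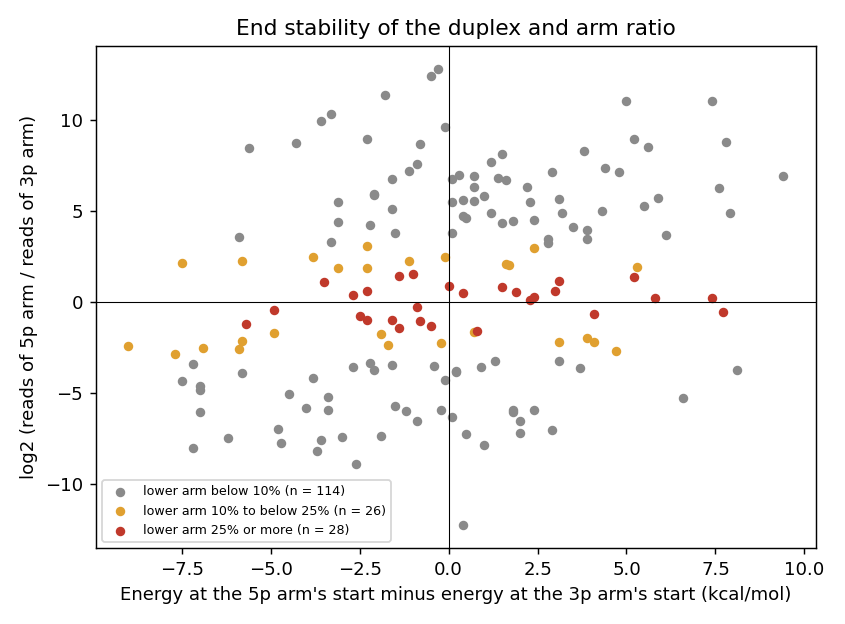
Difference in end stability of the duplex (energy at the start of the 5p arm minus that of the 3p arm, kcal/mol) against the log2 ratio of 5p to 3p reads; each point is 1 of the 168 hairpins. Members (red) spread along the horizontal axis up to 7.7 kcal/mol while their ratios stay near 0, as the rule requires.

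Seeds describe what each arm can address. No member had the same seed on both arms. Of the 56 arms, 37 had a seed that no other listed miRNA carried, 17 of the higher arms and 20 of the lower. In 14 hairpins both seeds were alone in this sense, among them miR-455, miR-145, miR-574, miR-493, miR-339 and miR-18a. At least 90% of the reads of its seed came from the member in 21 of 28 higher and 22 of 28 lower arms. No 2 members shared the seeds of both arms. Over bases 2 to 7 alone, 32 of the 56 arms had a seed of their own. The share over all listed miRNAs was not determined, so these counts are not read as a trait of the members.

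Some members added little to a seed that other miRNAs supplied. miR-106b-5p, of the family that includes miR-17 and is known to repress the cell cycle inhibitor gene CDKN1A, had 656 reads, or 2.83% of the reads with its seed; miR-20a-5p had 8460, miR-17-5p 7225 and miR-93-5p 6822. Its 3p arm, with 1043 reads, had a seed of its own. miR-15b-5p held 18.3% of the reads of the miR-15/16 seed and miR-195-5p 3.64%, beside 6611 reads of miR-16-5p. miR-374a-5p (2456 reads) and miR-374b-5p (2536) supplied nearly equal numbers, whereas miR-374a-3p (1394 reads) was alone with its seed. The 3p arm of miR-195 shared its seed with miR-16-2-3p, which had 1678 reads against 251. These arms are shown because 1 seed is common to several hairpins while the partner arm differs.
miR-106b-5p: tAAAGTGCtgacagtgcagat
miR-106b-3p: cCGCACTGtgggtacttgctgc
miR-195-5p: tAGCAGCAcagaaatattggc
miR-195-3p: cCAATATTggctgtgctgctcc

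A pair of members without shared ancestry in name also had 1 seed. miR-199a-3p (85 reads) and miR-3129-5p (60 reads) both carry it, the first as the higher and the second as the lower arm of its hairpin; miR-199b-3p added 10 reads. Over bases 2 to 7 alone, the lower arm of miR-18a matched the higher arm of miR-324, with 128 and 110 reads.
miR-199a-3p: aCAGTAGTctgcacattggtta
miR-3129-5p: gCAGTAGTgtagagattggttt
miR-324-3p: aCTGCCCCaggtgctgctgg

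Hairpins that share a seed on the same arm often differed in arm balance. miR-106b had more reads on the 3p arm (lower arm 38.6%), while its seed relatives miR-17, miR-20a and miR-93 had 2.54%, 0.271% and 1.88% on the lower arm, each time 3p. miR-29c, of a family that represses collagen genes, had a lower arm at 45.1% (38.8 to 51.6%) against 0.213% (0.183 to 0.247%) in miR-29a, which had 83165 reads in total. miR-195 stood at 41.5% and miR-15b at 31.6%, but miR-497 at 2.01% (0.417 to 5.77%), and in miR-424, at 22.9%, the 3p arm led. miR-374a stood at 36.2% and miR-374b at 6.04%. miR-132, a miRNA induced by neuronal activity, had more on 3p (1059 against 533), and its seed relative miR-212 more on 5p (122 against 22). miR-708 was led by 5p, whereas miR-28 had 762 reads on 5p and 4497 on 3p.

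Near-identical copies limit some of these counts, because the rule for reads that match several names is not given in the sources used here. Over the shorter length, counted from base 1, 8 member arms of 6 hairpins had another listed miRNA at 2 or fewer differences. miR-29c-3p differs from miR-29a-3p by C10T (the base of miR-29a-3p first, positions from its 5′ end), and the latter had 82988 reads against 135. The share of the lower arm of miR-29c therefore depends on how reads with a single mismatch were assigned. miR-195-5p differs from miR-16-5p by G10A and T11G. miR-199a-3p has the same sequence as miR-199b-3p, so its 85 reads cannot be assigned to 1 gene. miR-548f-3p is listed by RefSeq for 5 genes and miR-548f-5p for 1, so its arms do not stem from the same set of hairpins.
miR-29c-3p: tAGCACCAtttgaaatcggtta
miR-29a-3p: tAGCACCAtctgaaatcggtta
miR-29c-5p: tGACCGATttctcctggtgttc

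Several members lay in gene clusters, where hairpins are thought to come from 1 transcript. Of 27 runs of neighbouring miRNA genes with 2 or more hairpins among the 168, 11 held a member and 16 held none. The 11 runs are not 11 separate clusters, since the chromosome 14 cluster described below was split over several of them. Its runs are those with miR-493, with miR-136, with miR-299 and miR-654, and with miR-382, miR-485 and miR-369. Each of the 11 also held a hairpin outside the limit, where 140 of the 168 hairpins (83.3%) lay. Of the 21 other hairpins in the 11 runs, 19 were one-sided, and miR-212 and miR-409 lay from 10% to below 25%. Over all 140 hairpins outside the limit, 81.4% were one-sided. In the 17-92 cluster, miR-18a had 51.7% of its reads on 5p, and miR-17 and miR-20a of the same run had 97.5% and 99.7%. Beside miR-145, with 72.3% on 5p, lay miR-143 with 0.767% of 47487 reads. Next to miR-200a, of the epithelial miR-200 family, with 27.5% on 5p (28 of 102 reads), miR-200b had 0.346% of 867. The cluster within MCM7 held miR-25 with 2.67% on 5p, miR-93 with 98.1% and miR-106b with 38.6%.

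The imprinted cluster on chromosome 14, expressed from the maternal copy, held 7 of the 28 members: miR-493, miR-136, miR-299, miR-654, miR-382, miR-485 and miR-369. From MIR493 to MIR656 it had 20 hairpins among the 168, so 35% of them were members, against 21 of 148 elsewhere (14.2%). The cluster was singled out after its values were seen. Depth differed as well: of its hairpins with fewer than 1000 reads, 5 of 11 were members (45.5%), against 12 of 60 elsewhere (20%).

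Within the cluster, members lay among hairpins of differing balance, 12 of them one-sided. In gene order, miR-493 had 59.8% of its reads on 5p, miR-136 40.9%, miR-299 32.7%, miR-654 25.2%, miR-382 74.1%, miR-485 56.3% and miR-369 30.6%. Between them lay miR-381, with 14542 reads of which 0.0206% were 5p, and miR-379, with 3365 reads of which 98.1% were 5p. The 3p arm led in 15 of the 20 hairpins and in 4 of the 7 members. The 5p arm led in the other 5 hairpins of the cluster, 3 of them members, beside 94 of all 168 hairpins (56%). The median share of the lower arm was 5.20% in the cluster and 4.49% elsewhere, so its 20 hairpins as a whole were not far from the rest.

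**Figure D5:**
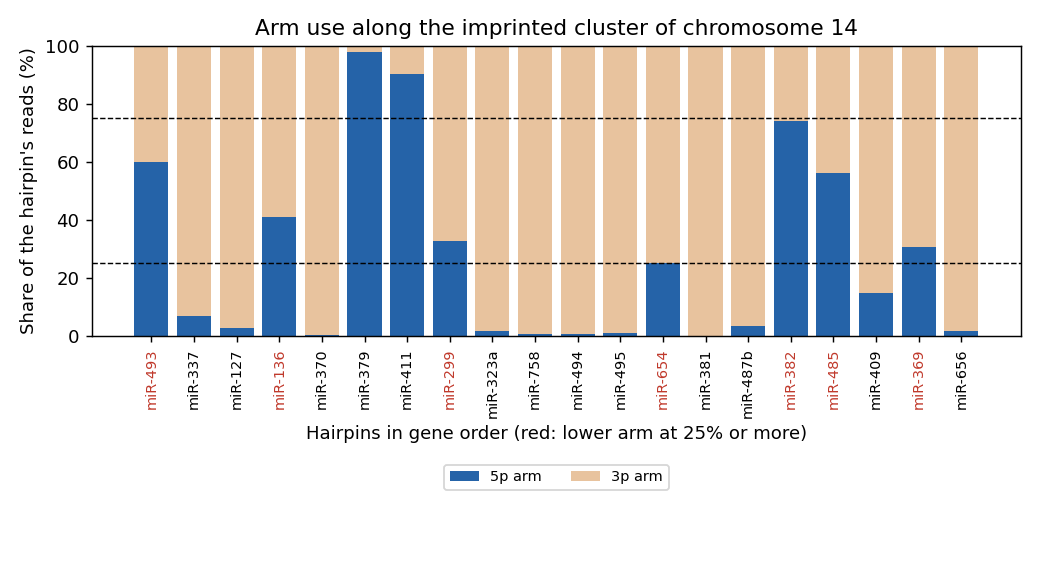
Share of reads on the 5p (blue) and 3p (tan) arm for the 20 hairpins of the chromosome 14 cluster in gene order; dashed lines at 25% and 75% bound the range of the members, named in red. Of the other hairpins, miR-381 has 0.0206% of its reads on the lower arm and miR-409, next to the members miR-485 and miR-369, 14.7%.

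The mRNA library gives the RNA level of the genes that hold these hairpins, which does not measure how much they were transcribed. By RefSeq position, 18 of the 28 hairpins lay within a gene on the same strand, 21 such genes in all. miR-3129 lay within COL5A2 (88.8 FPKM), but the strand of that gene was not resolved. COL5A2 was therefore not counted among the hosts. Of these, 17 had a row and 13 were at 1 FPKM or more, beside 64.6% of all 21445 genes with a row. SMC4, a condensin subunit and host of miR-15b, was at 62.1 FPKM, FAM114A1 (miR-574) at 56.6, MCM7, a subunit of the replicative helicase and host of miR-106b, at 47.2, and TAF1D (miR-1304) at 41.1. COL27A1 was at 11.1 although miR-455 had the most reads, and CARMN, the host of miR-145, at 1.52. MIR497HG (miR-195) and MIR29B2CHG (miR-29c) were at 0.142 and 0.240. Whether counting used strand is not given in the sources used here, so reads of genes on opposite strands cannot be told apart.

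The other hosts had lower values than SMC4, FAM114A1, MCM7 and TAF1D. CCPG1 (miR-628) was at 23.8 FPKM, CHLSN (miR-339) at 22.8, FTX (miR-374a) at 20.7, RAB3GAP2 (miR-664a) at 14.6, MIR17HG (miR-18a) at 2.81 and TENM4 (miR-708) at 2.39. Of the hosts of the copies of miR-548f, TMEM232 was at 1.66, ERBB4 at 0.342 and DMD at 0.275. miR-324 lay opposite to ACADVL and miR-136 opposite to RTL1, so the values of those genes were not read as host levels.

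Transcripts for the proteins that cut, load and trim the duplex were all detected. Each of the 23 genes on the list reached 1 FPKM, against the 64.6% of all genes given above. The median was 19.7 FPKM on the list and 2.96 over all rows. Of the Argonautes, which hold the guide, AGO3 was at 14.5 FPKM, AGO2, the one that cuts its target, at 12.6, AGO1 at 7.29 and AGO4 at 4.70. DICER1 was at 19.3 and its partners TARBP2 and PRKRA at 14.9 and 19.7. HSPA8 and HSP90AA1, chaperones of the loading step, were highest at 723 and 434. TSN and TSNAX, which together form a nuclease that removes passenger fragments, were at 27.7 and 23.0. Apart from the Argonautes, the genes named from this list were chosen after their values were seen. Levels in 1 library do not show what these proteins do to the arms.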

How the data were processed

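Per the file headers, the authors deposited raw read counts for each mature miRNA and each piRNA entry, with sequences, and FPKM values per gene. The submitters' processing notes name cutadapt and the builds hg19 and GRCh37; names of an aligner, a counter and an annotation were not given in the sources used here. Each library is 1 sample, so no test between groups was made. The 28 members and the lists were chosen with earlier results of these data known.

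Arms were paired by name in Python 3.11.15 (pandas 2.3.3), and shares given exact Clopper-Pearson 95% intervals (SciPy 1.17.1). Duplexes of both arms were folded with RNAduplex (ViennaRNA 2.7.2), and the energy added by pairs of the first 4 bases of each arm was taken. The scripts were tested on simulated data. Of the 56 member arms, 54 were found by name in the RefSeq miRNA table (GRCh38.p14), 52 with the same sequence. Hosts are RefSeq genes that hold the hairpin on the same strand; a host at 1 FPKM or more counted as detected. Named in full were the 8 members with the most reads and the 4 nearest to an even split; other sequences were chosen after their values were seen. Alternatives were other limits, summed copies, other end lengths and RNAcofold. Depth was 11785001 miRNA reads, which limits shares of members with few reads; the depth behind the FPKM values is unknown.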

Additional observations from a re-analysis of the deposited data

Results flagged for a closer look

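A piRNA entry, piR-36984, holds the whole sequence of miR-106b-5p (21 bases of its 31) and had 5 reads, beside 656 for miR-106b-5p in the miRNA table. It was singled out as a signal outside the miRNA counts and was the only one of 10487 piRNA entries that shared 16 bases in a row with a member arm.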

How the results depend on the processing

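The number of hairpins at the limit moved with its settings: 49 at a minimum of 20 reads, 13 at 500, 11 at 1000, and 10 with a lower arm at 40% or more, where the 5p arm led in 7. With a minimum of 50 reads, a lower arm at 20% or 30%, identical sequences summed or numbered copies summed, it stayed within 1.5 times of 28. Both kinds of summing gave 29 hairpins that included all 28, adding miR-365a and miR-125b in turn. Keeping only intervals wholly above the limit, an alternative chosen after seeing the data, left 22. Without miR-21-5p in the total, the members held 1.40% of the reads. U led 36.7% of the higher arms at a minimum of 20 reads, 47.2% at 50, 69.2% at 500 and 72.7% at 1000, against 53.6% at 100. Against hairpins with a lower arm below 1%, U led 4.55% of the lower and 68.2% of the higher arms. The members whose weaker end was the higher arm numbered 21 with 3 bases, 19 with 5 and 20 with RNAcofold. The cause of these changes was not tested, apart from the smaller total without miR-21-5p. Of 46 alternative values 9 were classed as moved and 26 as not moved. Those 26 include the 36.7, 47.2 and 69.2% for U on the higher arms, so not all of them stayed close. The other 11, the named shares with identical sequences summed, could not move, since no other listed miRNA has those sequences. No paired analysis was possible because each library is a single sample without a replicate. Members with under 200 reads, 8 in number, have the widest intervals.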
